A study of Mus musculus with 12 samples.

Results

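The microRNA family of miR-15, miR-16, miR-195 and miR-497 is a group of small RNAs (miRNAs) whose guide strands begin with nearly the same bases. The members were 10 miRNAs chosen by name, the guide and passenger arms of miR-15a, miR-15b, miR-16, miR-195a and miR-497a. All 10 were found among the 1978 miRNAs in the count table, of which 1405 had a count in some library. The passenger arm of miR-497a was not a member, and it had 1 count over all libraries.

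A miRNA is cut from a hairpin whose arms, named 5p and 3p, give a guide and a passenger strand. The guide is held by an Argonaute protein and pairs with messenger RNAs mainly through its seed, bases 2 to 8, while the passenger is largely degraded. The miR-15/16 family is known for restraining cell cycle and survival genes such as cyclins and Bcl2, and miR-15a with miR-16 was first recognised as a tumour suppressor pair in leukaemia.

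Small RNA was sequenced from the colon and the whole blood of 6 wild-type male C57BL/6 mice aged 8 weeks, giving 12 libraries. Dextran sulfate sodium (DSS), a chemical that injures the colon epithelium, had been given to 3 mice (mice 1, 7 and 9) at 1.5% (wt/vol) in the drinking water for 7 days, and the 3 control mice (2, 4 and 8) drank the same water without it. All mice were killed on day 8, so the groups model acute chemical colitis at a single time. The group and tissue fields of the sample labels conflict with this. In the disease state field the colitis animals are mice 1, 2 and 4 and the control animals mice 7, 8 and 9, and the source field names the other tissue than the tissue field for every library. The grouping by mouse number in the study's figures was used, and each comparison with DSS was repeated with the labels' grouping. Blood and colon RNA had been extracted with different kits, so tissue and extraction cannot be told apart in any comparison between them.

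The 5 guides carried 1 seed, which is shown because it is what makes them a family. The mature sequences below are those deposited with the counts. They equal the RefSeq entries for all 10 members, capitals mark the seed, and a name such as mmu-mir-16-5p is written miR-16-5p elsewhere.
mmu-mir-15a-5p: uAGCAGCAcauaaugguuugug
mmu-mir-15b-5p: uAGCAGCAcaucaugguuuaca
mmu-mir-16-5p: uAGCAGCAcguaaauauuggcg
mmu-mir-195a-5p: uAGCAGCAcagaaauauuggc
mmu-mir-497a-5p: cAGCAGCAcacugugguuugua
After the seed, miR-16-5p and miR-195a-5p were the nearest pair, with 2 differences counted from the 5′ end (G10A and U11G, the base of miR-16-5p first). miR-15a-5p and miR-15b-5p differed at 4 bases, and miR-16-5p and miR-497a-5p at 11. Whether reads with errors were shared between miR-16-5p and miR-195a-5p was not tested.

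The passenger arms shared no seed, as their sequences show with bases 2 to 8 in capitals.
mmu-mir-15a-3p: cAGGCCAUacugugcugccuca
mmu-mir-15b-3p: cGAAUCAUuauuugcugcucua
mmu-mir-16-1-3p: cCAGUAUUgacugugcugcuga
mmu-mir-16-2-3p: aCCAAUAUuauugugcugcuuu
mmu-mir-195a-3p: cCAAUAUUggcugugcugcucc
miR-16-5p is made from 2 genes, Mir16-1 and Mir16-2, and only the passenger arms tell these apart. The RefSeq hairpins of both, with the arms in capitals, show the same guide beside different passengers.
Mir16-1: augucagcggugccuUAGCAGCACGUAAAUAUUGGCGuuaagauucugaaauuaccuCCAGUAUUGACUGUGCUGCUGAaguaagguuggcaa
Mir16-2: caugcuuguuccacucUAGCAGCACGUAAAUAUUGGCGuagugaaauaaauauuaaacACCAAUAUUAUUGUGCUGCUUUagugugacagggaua
Mir15b: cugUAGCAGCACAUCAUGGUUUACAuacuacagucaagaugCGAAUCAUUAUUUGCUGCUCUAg
The Mir15b hairpin is shown because its arm ratio differed most between the tissues.

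The genes form 3 clusters in the GENCODE annotation of GRCm38. Mir15a (chr14:61632027-61632110, minus strand) lies in an intron of the long noncoding RNA gene Dleu2, and Mir16-1 (chr14:61631880-61631972, minus strand) lies 54 bases from it and overlaps an annotated Dleu2 exon. Mir15b (chr3:69009772-69009835, plus strand) and Mir16-2 (chr3:69009902-69009996, plus strand) lie 66 bases apart in an intron of Smc4, a condensin gene on the same strand. Mir497 (chr11:70234717-70234800, plus strand) lies 241 bases from Mir195a (chr11:70235042-70235135, plus strand), and on the opposite strand it overlaps the annotated Mir497b.

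The colon libraries summed to 15060553 to 20106226 counts each, the blood libraries to 21127134 to 32944792. The 10 members held 0.0384% to 0.0592% of the colon counts and 0.0601% to 0.111% of the blood counts, where miR-486a and miR-486b held 74.7% to 83.0%. The deepest member was miR-16-5p, which reached 5850 to 21905 counts in blood against 2637 to 5503 in colon. The shallowest were miR-16-2-3p (10 to 22 colon counts, 10 to 235 blood counts) and miR-497a-5p, with 10 to 38 counts in blood, so their values rest on few reads. All 10 members passed the filter on low counts in both tissues.

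The tissues were compared first, since the part of the family each expresses frames the comparisons with DSS. Levels are given as CPM, counts for every 1000000 counts of the library after scaling with TMM factors (the trimmed mean of M values) over all 12 libraries. The miR-15 and miR-16 members were higher in blood and the miR-195 and miR-497 members higher in colon. In blood, miR-15b-5p was at 310 CPM ± 87.7 (SD, n = 6), against 10.8 ± 1.82 in colon. The 6 blood libraries ran from 176 to 391 CPM and the 6 colon libraries from 8.47 to 13.2 CPM, so the tissues did not overlap. miR-15a-5p was at 24.9 ± 11.2 CPM in blood and 2.42 ± 0.656 CPM in colon. miR-16-5p, the most abundant member in both tissues, was at 643 ± 259 CPM in blood and 164 ± 17.4 CPM in colon. These 3 guides did not overlap between the tissues. The colon was higher for the other pair of guides, again without overlap. miR-195a-5p had a colon level of 76.3 ± 8.40 CPM and a blood level of 6.22 ± 1.18 CPM. miR-497a-5p, from the same cluster, had 18.9 ± 3.60 CPM in colon against 1.31 ± 0.458 CPM in blood.

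**Figure D1:**
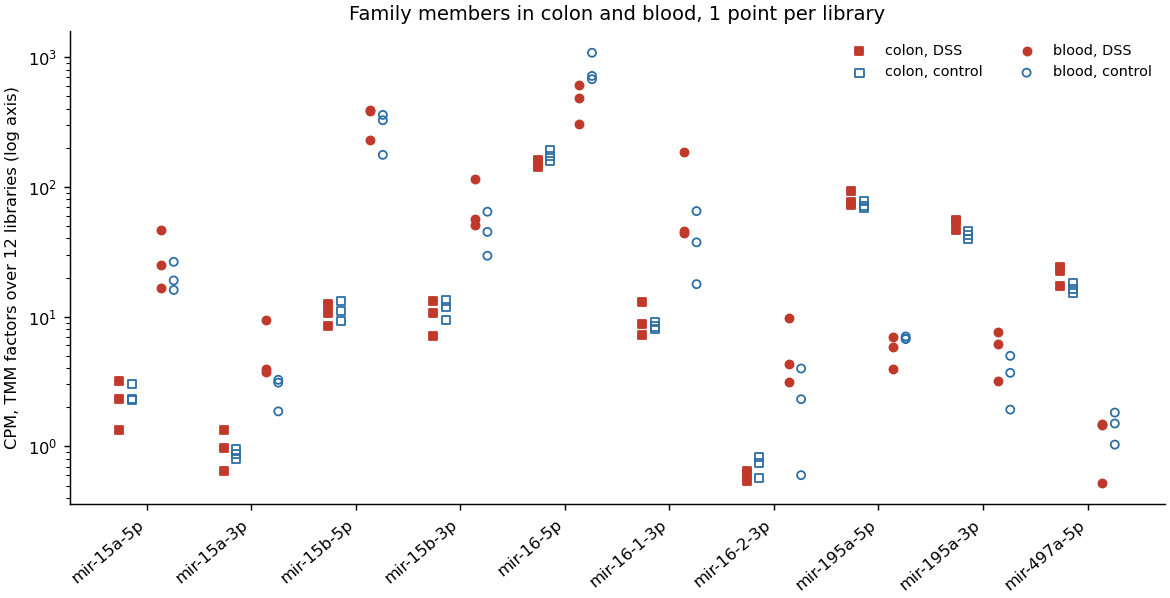
Level of each member in CPM on a log axis, with TMM factors over 12 libraries and 1 point per library (squares colon, circles blood, filled DSS, open control). Members of the miR-15 and miR-16 hairpins lie higher in blood, and miR-195a and miR-497a members lie higher in colon, where miR-195a-5p ran from 68.7 to 92.2 CPM against 3.97 to 7.03 CPM in blood.

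All 10 members differed between the tissues in edgeR's quasi-likelihood test (Benjamini-Hochberg adjusted p at most 0.05 and a fold change over 1.5), 7 higher and 3 lower in blood. Of the 680 miRNAs tested, 88.7% differed by the same rule, 37.6% higher and 51% lower in blood, so passing the test was the common result. The log2 fold change in blood against colon was 4.84 for miR-15b-5p (SE 0.27, edgeR adjusted p = 1.13e-10), 3.33 for miR-15a-5p (SE 0.31) and 1.92 for miR-16-5p (SE 0.21). It was -3.62 for miR-195a-5p (SE 0.21, edgeR adjusted p = 2.48e-10), -3.39 for miR-195a-3p (SE 0.28) and -3.84 for miR-497a-5p (SE 0.28). The passenger arms of the blood-rich hairpins were also higher in blood, by 2.08 for miR-15a-3p, 2.43 for miR-15b-3p, 2.74 for miR-16-1-3p and 2.47 for miR-16-2-3p on the log2 scale. Over every miRNA tested the median of this fold change was -0.86 on the log2 scale, and with other scalings it lay between -1.59 and 0.33. Relative to that median, miR-15b-5p lay 5.16 to 5.71 above and miR-195a-5p 2.74 to 3.30 below over the scalings. A change of scaling shifts all miRNAs nearly alike, and taking off the median removes that shift. These ranges therefore cannot test whether the order of the members turns on the scaling. Without that step, the log2 fold change of miR-16-5p ran from 1.17 to 3.12 over all alternatives. Erythroid miRNAs (miR-451a, both miR-144 arms and both miR-486 copies) reached a summed level of 579912 to 1142910 CPM in blood, against 3127 to 4730 CPM in colon, with factors set within each tissue, and their part in the levels of the family was not tested. In bulk samples, fewer cells of a type and less RNA per cell cannot be told apart.

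The ratio of guide to passenger counts of miR-15a and miR-15b was higher in blood than in colon. The ratio of 5p to 3p counts was taken within each library as a log2 ratio, with 0.5 added to each count, so that scaling between libraries cancels. For miR-15b in colon the arms were about equal, since 5p made up 44.5% to 54.5% of the counts of the hairpin. In blood 5p made up 77.2% to 91.7% of them. The mean log2 ratio was 0.0059 ± 0.25 (SD, n = 6) in colon and 2.43 ± 0.62 in blood, higher in blood in 6 of 6 mice (exact permutation test, two-sided, p = 0.00216, adjusted over 8 ratios 0.00866). For miR-15a the 5p share was 67.6% to 76.2% in colon and 81.5% to 89.6% in blood, with mean log2 ratios of 1.34 ± 0.22 and 2.63 ± 0.38 (the same exact p values, higher in blood in 6 of 6 mice). This p is the smallest that 6 libraries against 6 can give. In the exact sign-flip test within mice, where the smallest possible p is 0.0312, both ratios gave that p and an adjusted p of 0.0833. Among the 167 hairpins with both arms tested, 41.3% had ratios that did not overlap between the tissues. For miR-15a in colon the counts are low, 25 to 109 for 5p and 12 to 46 for 3p, and the exact 95% binomial interval of a single library's share spanned up to 31.8 percentage points. Binomial intervals cover counting error only.

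The hairpins of miR-16 and miR-195a gave no such difference over the 6 mice. For miR-16, with the passengers of both genes summed, the mean log2 ratio was 3.49 ± 1.34 in blood and 4.09 ± 0.28 in colon (exact permutation p = 0.312, adjusted 0.416). For miR-195a it was 0.54 ± 0.75 in blood and 0.69 ± 0.19 in colon (exact permutation p = 0.658, adjusted 0.658). The spread was wider in blood than in colon for both. Within the DSS mice alone, both ratios were lower in blood than in colon without overlap, the opposite direction to the miR-15 hairpins in the same mice (log2 difference -1.40 for miR-16 and -0.58 for miR-195a). Within the control mice the tissues overlapped (0.20 and 0.28), and whether the conditions differ in this was not tested. The share of all hairpins that separate the tissues within 3 mice was not taken, so these values are descriptions only. miR-16-5p held 92.2% to 95.3% of the hairpins' counts in every colon library and 75.8% to 97.5% in blood. miR-195a, by contrast, kept much of its passenger arm, with 5p at 56.5% to 66.1% in colon and 43.3% to 77.9% in blood.

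**Figure D2:**
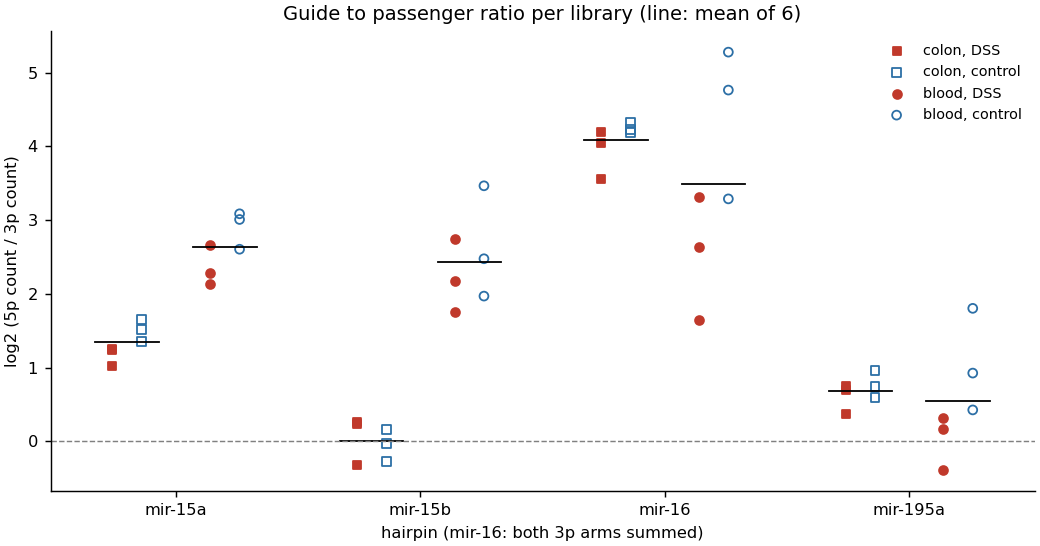
Log2 ratio of 5p to 3p counts for 4 hairpins, 1 point per library (squares colon, circles blood, filled DSS, open control), with a line at the mean of the 6 libraries of a tissue and a dashed line at equal arms. miR-15a and miR-15b lie higher in every blood library than in any colon library. In blood the DSS points of miR-195a all lie below the control points, with the nearest at 0.31 (DSS) and 0.43 (control), within counting error.

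The passengers of the 2 miR-16 genes were set against each other. Of their counts, miR-16-1-3p held 91.1% to 95.3% in the colon libraries and 91.1% to 96.7% in those of blood. The log2 ratio between them was 3.73 ± 0.37 in colon and 4.05 ± 0.48 in blood (exact permutation p = 0.236, adjusted 0.378). In the control mice alone it was higher in blood than in colon without overlap (4.28 and 3.54). In the DSS mice the tissues overlapped (difference -0.11). The control tissues nearly met, at a miR-16-1-3p share of 94.2% in blood of mouse 2 and 94.1% in colon of mouse 4. The exact 95% binomial intervals of these shares overlapped (92.3% to 95.7% and 89.9% to 96.9%). In control mice 2, 4 and 8, miR-16-2-3p had 14, 12 and 17 colon counts and 47, 10 and 83 blood counts. How often other ratios separate the tissues within 3 mice was not taken, so this separation is a description only. The shares of miR-16-1-3p describe the passengers and not the output of the genes. Within the Dleu2 cluster, miR-15a-3p was lower relative to miR-16-1-3p in blood (log2 -3.75 ± 0.45) than in colon (-3.26 ± 0.087), in 6 of 6 mice (exact permutation p = 0.00866, adjusted 0.0231). That call was lost in the sign-flip test within mice (adjusted p = 0.0833) and when any single one of mice 1, 2, 7, 8 and 9 was left out (exact permutation adjusted p up to 0.0847). The ratio of miR-195a-5p to miR-497a-5p was 2.03 ± 0.16 on the log2 scale in colon and 2.30 ± 0.41 in blood, and that of miR-15b-3p to miR-16-2-3p was 3.99 ± 0.37 and 4.18 ± 0.71 (exact permutation adjusted p = 0.372 and 0.658).

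In blood, the DSS mice were compared with the control mice, since the study profiled blood beside the inflamed colon. The lowest miR-16-5p levels were all in DSS mice. With TMM factors over the 6 blood libraries, miR-16-5p was at 365, 312 and 270 CPM in DSS mice 1, 7 and 9 and at 984, 684 and 477 CPM in control mice 2, 4 and 8. Every DSS library was below every control library, and the control libraries spread over a wider range than the DSS libraries. The log2 fold change was -1.18 (SE 0.29, edgeR unadjusted p = 0.00341), but the adjusted p was 0.236. None of the 10 members was called, and the same test called 0 of the 484 miRNAs in blood (0%), with 56 (11.6%) at an unadjusted p under 0.05. DESeq2's Wald test called 9 miRNAs in blood, miR-16-5p among them with an adjusted p of 0.0489, and edgeR without a filter on low counts gave an adjusted p of 0.00485. Over all alternatives its adjusted p ran from 0.00485 to 0.95. The highest value is that of the labels' grouping, where the log2 fold change was 0.94, where mice 2 and 4, with the highest levels, are in the colitis group.

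miR-195a-5p and miR-497a-5p also had lower mean levels in the DSS mice. miR-195a-5p, which differs from miR-16-5p at 2 bases, was at 3.52, 4.51 and 3.51 CPM in DSS mice 1, 7 and 9 and at 6.42, 6.50 and 4.75 CPM in the controls. The groups did not overlap (log2 fold change -0.61, SE 0.25, edgeR adjusted p = 0.396), but with factors over 12 libraries they did. miR-497a-5p was at 0.881, 0.967 and 0.462 CPM in DSS mice and 0.944, 1.44 and 1.29 CPM in controls, overlapping (log2 fold change -0.64, SE 0.36, edgeR adjusted p = 0.527, and -0.36 without DSS mouse 9, whose library held 10 counts of it). For miR-15b-5p the DSS mice had 235, 248 and 203 CPM and the controls 161, 312 and 253 CPM, with the DSS libraries inside the range of the controls. miR-15a-5p was at 27.7, 16.3 and 14.6 CPM against 17.3, 15.4 and 18.7 CPM, with both the highest and the lowest value in DSS mice. Groups that did not overlap made up 17.4% of the miRNAs tested in blood, 9.92% with DSS lower, against 2 of 10 members, both lower. Summed erythroid markers were at 579912 to 864794 CPM in DSS blood and 636782 to 1142910 CPM in control blood, and leukocyte markers at 4694 to 5753 against 3255 to 5308 CPM. No marker of any list passed the edgeR test in blood, which called 0 of all 484 miRNAs and so says nothing about the markers. The sums of 2 other lists did not overlap and were lower in DSS blood, though those of the epithelial list nearly met. The miR-126a arms, platelet and endothelial markers, summed to 13.4 to 16.3 CPM against 31.0 to 57.3 CPM (log2 fold change -1.45 for the 1 arm tested), and epithelial markers to 950 to 1123 against 1129 to 1324 CPM, with 9 of 9 lower. Smooth muscle and stroma markers were at 179 to 259 against 192 to 391.8 CPM, with 4 of 4 lower and overlapping sums. The part of these cells in the level of miR-16-5p was not tested.

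All 5 passenger arms had a positive log2 fold change in blood, from 0.39 for miR-195a-3p to 1.04 for miR-16-2-3p, while 4 of the 5 guides had a negative one. No member passed the test, with edgeR adjusted p of 0.236 for miR-16-5p to 0.938 for miR-15b-5p, and the members of a hairpin and a cluster are not independent. The members' median was 0.29 on the log2 scale, against -0.05 for all 484 miRNAs. The passenger values of the miR-15 and miR-16 hairpins fell most when DSS mouse 1 was left out, to 0.40 for miR-15a-3p, 0.15 for miR-15b-3p and 0.62 for miR-16-2-3p. miR-195a-3p, with DSS mice 1 and 7 above every control, fell most without control mouse 4, to 0.21, and miR-16-2-3p was at 0.70 without that mouse. miR-15a-3p was at 5.66, 2.58 and 3.32 CPM in DSS mice 1, 7 and 9 and at 2.83, 1.78 and 2.31 CPM in the controls, so mouse 7 lay below control mouse 2. With factors over 12 libraries its groups did not overlap, which 7.5% of 680 miRNAs showed in that direction. miR-16-1-3p was at 111, 28.7 and 40.6 CPM in DSS mice 1, 7 and 9 and at 34.1, 17.04 and 46.0 CPM in the controls. Only DSS mouse 1 lay above the controls. Its log2 fold change was 0.89 (SE 0.54) with all mice and 0.15 without mouse 1. miR-15b-3p was at 69.5, 36.9 and 45.1 CPM in DSS mice and 41.1, 28.2 and 45.5 CPM in controls, again with mouse 1 as the only library above the controls.

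**Figure D3:**
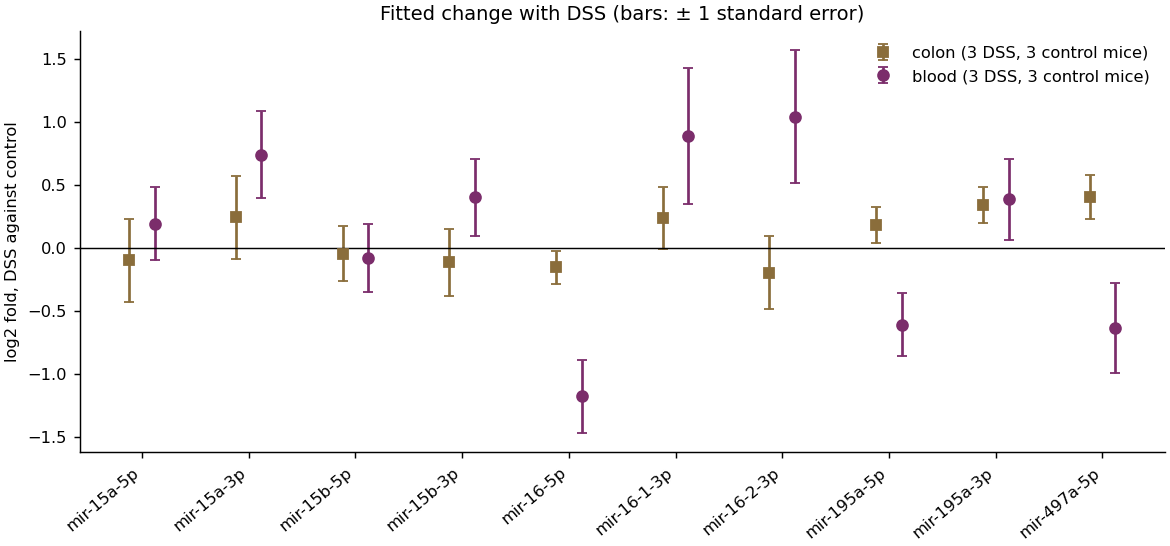
Log2 fold change in DSS against control mice for each member from edgeR, fitted in each tissue alone (squares colon, circles blood), with bars of 1 standard error. In blood the guide miR-16-5p lies lowest at -1.18 and the 5 passenger arms lie above 0, and no member passed the test in either tissue.

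The arm ratio sets guide and passenger of a library side by side without any scaling. For miR-16 the ratio of 5p to 3p counts was 3.13, 9.90 and 6.22 in DSS mice 1, 7 and 9 and 27.2, 38.8 and 9.77 in control mice 2, 4 and 8. Mouse 7 of the DSS group and mouse 8 of the controls had nearly the same ratio, so the groups overlapped at that point. The mean log2 ratio was 2.53 ± 0.84 (SD, n = 3) in DSS mice and 4.44 ± 1.03 in controls (exact permutation p = 0.2, adjusted over 8 tests 0.32). For miR-195a the ratio was 0.766, 1.12 and 1.24 in DSS mice and 1.90, 3.49 and 1.34 in controls, so the passenger outnumbered the guide only in DSS mouse 1. The groups did not overlap (mean log2 ratio 0.031 ± 0.37 and 1.05 ± 0.70, exact permutation p = 0.1, adjusted 0.32). For miR-15a the ratio was 4.88, 6.30 and 4.38 in DSS mice and 6.09, 8.49 and 8.05 in controls (exact permutation p = 0.2), and for miR-15b the groups overlapped widely (p = 0.6 in the exact permutation test). With 3 against 3 the smallest possible p is 0.1, so no adjusted value could pass. Over the 106 hairpins with both arms tested in blood, 12.3% had a ratio of the more to the less abundant arm that was lower in every DSS mouse than in any control, and the median difference in log2 ratio was -0.08, against -1.91 for miR-16 and -1.02 for miR-195a. Without control mouse 4 the value of miR-195a was -0.65. With the labels' grouping the differences were 0.82 and 0.48, and the groups' order turned.

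In colon, 4 of 9 epithelial markers, a list with miR-192-5p and the miR-200 group, were called lower in DSS mice by edgeR. Of these 9 markers, 8 had a negative log2 fold change and 1 a positive one. Of 6 leukocyte markers, a list with miR-223-3p, 2 were called higher and all 6 had a positive log2 fold change. Summed epithelial markers were at 55653 to 136222 CPM in DSS mice and 163013 to 204162 CPM in controls. None of the 10 members was called, against 10.1% (55 of 542) of the miRNAs tested in colon, and their log2 fold changes ran from -0.20 for miR-16-2-3p to 0.40 for miR-497a-5p. That background depends on the settings, with 16 of the 542 called with RLE factors, 8 with upper-quartile factors and 0 of all miRNAs when mouse 2, 4, 7 or 8 was left out. In colon, 1 member had an unadjusted p under 0.05, against 31.4% of the miRNAs tested. DESeq2 called no member either, and 75 miRNAs in all. Summed leukocyte markers were at 404 to 1267 CPM in DSS mice and 308 to 445 CPM in controls, smooth muscle and stroma markers at 257481 to 348009 against 278357 to 356652 CPM, and miR-126a arms at 6861 to 7340 against 5144 to 5558 CPM. No listed marker was at 0 in all libraries of a tissue, and the part of these cell types in the members' values was not tested.

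In colon, the members with the smallest unadjusted p were in the miR-195a and miR-497a cluster. miR-195a-3p was at 73.7, 70.3 and 61.8 CPM in DSS mice 1, 7 and 9 and at 56.9, 50.7 and 55.1 CPM in control mice 2, 4 and 8. It was the only member whose groups did not overlap in colon, where 38.6% of the miRNAs tested did not overlap (log2 fold change 0.34, SE 0.14, edgeR adjusted p = 0.157). miR-497a-5p was at 22.7, 31.1 and 29.8 CPM in DSS mice and 20.5, 22.9 and 19.8 CPM in controls, with mouse 1 just below the highest control (log2 fold change 0.40, SE 0.18, edgeR adjusted p = 0.169). miR-195a-5p was at 95.7, 119 and 101 CPM in DSS mice and 86.3, 98.7 and 92.5 CPM in controls, overlapping (log2 fold change 0.18, SE 0.14, and 0.085 without DSS mouse 7 or 0.11 without control mouse 2). All 3 turned negative with the labels' grouping. The most abundant guide, miR-16-5p, was at 189, 199 and 213 CPM in DSS mice and 199, 246 and 223 CPM in controls (log2 fold change -0.15, SE 0.13, edgeR adjusted p = 0.456, and -0.087 without control mouse 4 or -0.25 without control mouse 2). Its groups overlapped, with the lowest library a DSS library and the highest a control. The other 6 members, the arms of miR-15a and miR-15b and both miR-16 passengers, had log2 fold changes of -0.20 to 0.24 in colon, each with overlapping groups. Among the arm ratios in colon, that of miR-15a was lower in every DSS mouse (2.04, 2.38 and 2.35) than in any control (2.87, 3.15 and 2.57), with an exact permutation p of 0.1 (adjusted 0.32). In colon 5.04% of 139 hairpins showed that pattern.

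Whether the effect of DSS differed between the tissues was tested as an interaction over all 12 libraries. None of the 10 members was called by edgeR, which called 0 of 680 miRNAs (0%), with 94 (13.8%) at an unadjusted p under 0.05. DESeq2 called 37 miRNAs, 2 of them members, miR-16-5p (log2 difference -1.09, adjusted p = 0.0429) and miR-195a-5p (-0.86, adjusted p = 0.0454). In edgeR the difference was -0.63 for miR-16-5p (SE 0.41, adjusted p = 0.499) and -0.43 for miR-195a-5p (SE 0.39, adjusted p = 0.619). With single mice left out these ran from -0.93 to -0.28 and from -0.55 to -0.25, and miR-16-5p was at -0.28 without control mouse 2 and -0.33 without DSS mouse 9. With TMM factors, the median of this difference over the miRNAs tested was 0.22, and in DESeq2 it was -0.25. Relative to the median of the same fit, miR-16-5p lay 0.83 to 0.93 lower over the scalings, so the tools lay close on that scale. The edgeR test did not show the difference of miR-16-5p to be particular to blood.

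The make-up of the guide pool does not depend on scaling, since each guide is taken as a share of the 5 guides' counts in its own library. In colon the pool was mostly miR-16-5p and miR-195a-5p, and in blood mostly miR-16-5p and miR-15b-5p. In blood, miR-16-5p was 57.8%, 53.6% and 54.9% of the pool in DSS mice 1, 7 and 9 and 84.1%, 67.1% and 63.2% in control mice 2, 4 and 8. Its share was lower in every DSS mouse. The miR-15b-5p share was higher in each of them, with 37.2%, 42.6% and 41.3% in DSS mice and 13.8%, 30.6% and 33.5% in controls, and miR-15a-5p had 2.81% to 4.38% in DSS mice and 1.48% to 2.48% in controls. The colon groups also stood apart, by less. There miR-16-5p was 59.0%, 54.2% and 58.9% in DSS mice and 62.2%, 63.8% and 62.8% in controls. The shares of miR-195a-5p and miR-497a-5p were higher in each DSS mouse, miR-195a-5p at 27.8% to 32.2% against 25.6% to 26.9% in controls and miR-497a-5p at 7.09% to 8.44% against 5.57% to 6.39%. No test was run on these shares, whose parts are bound to each other by their sum. With the labels' grouping, the mean share of miR-16-5p in blood was 69.7% in the colitis group and 57.2% in the controls. The summed level of the guides was 492 to 633 CPM in DSS blood and 755 to 1170 CPM in control blood, without overlap, and 320 to 368 against 320 to 386 CPM in colon.

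**Figure D4:**
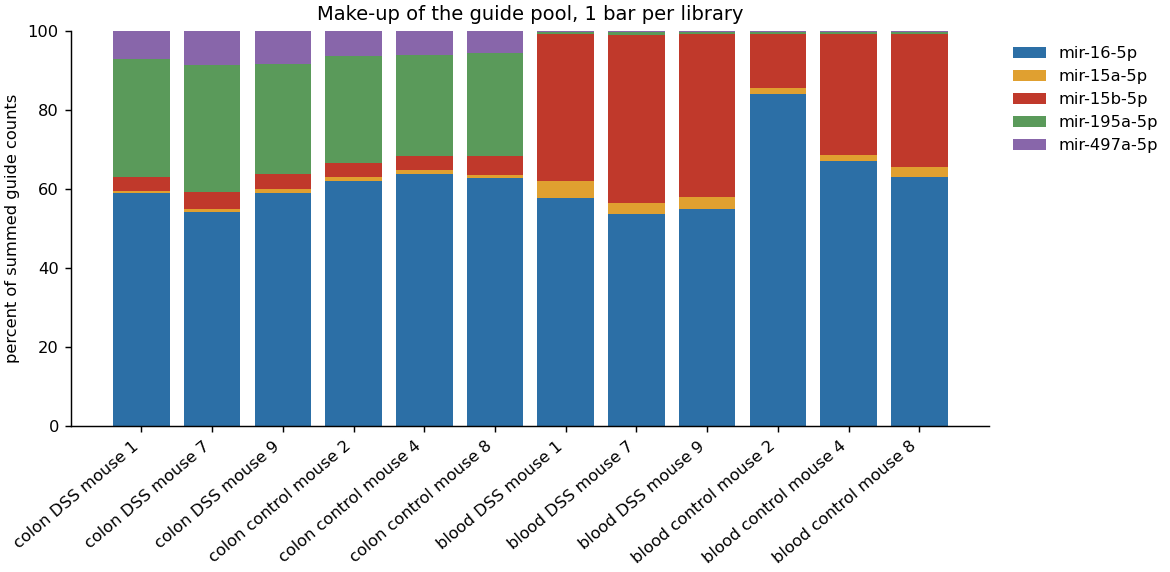
Share of each guide in the summed counts of the 5 guides, in percent, with 1 bar per library. miR-195a-5p and miR-497a-5p take a visible share only in colon, miR-15b-5p takes 13.8% to 42.6% in blood, and in both tissues the miR-16-5p share is lower in each DSS mouse than in any control.

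Beyond the members, 3 more miRNAs in the deposited sequences had the same seed. miR-322-5p, the rodent relative on the X chromosome, had 513 counts over all libraries, while miR-195b had 12 and miR-6353 had 1, both too few to compare.
mmu-mir-322-5p: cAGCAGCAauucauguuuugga
mmu-mir-503-5p: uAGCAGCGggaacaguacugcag
miR-503-5p differs from the family seed in its last base and is known to be transcribed with miR-322. In colon, miR-322-5p was at 3.87, 4.74 and 3.60 CPM in DSS mice and 3.00, 3.14 and 2.63 CPM in controls, without overlap (log2 fold change 0.47, SE 0.20, edgeR adjusted p = 0.161). In blood it was at 1.46, 0.451 and 0.785 CPM in DSS mice and 0.854, 0.518 and 0.882 CPM in controls, which overlapped (log2 fold change 0.26, SE 0.47, edgeR adjusted p = 0.924). miR-503-5p in blood was at 13.6, 10.2 and 16.8 CPM in DSS mice and 29.9, 23.6 and 21.3 CPM in controls, without overlap (log2 fold change -0.88, SE 0.27, edgeR adjusted p = 0.277). Like miR-16-5p in blood, miR-503-5p was thus lower in every DSS mouse without passing the main edgeR test. Of the 484 miRNAs tested in blood, 9.92% were lower in every DSS mouse. In colon, 22.5% of the 542 tested were higher in every DSS mouse, as miR-322-5p was. miR-503-5p in colon was at 5.09, 3.27 and 5.30 CPM in DSS mice and 3.80, 1.39 and 2.82 CPM in controls, which overlapped.

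The miRNAs whose pattern over the libraries was nearest to that of a guide were found from log2(CPM + 1) centred within a tissue, as the root mean square difference over its 6 libraries. In blood the 3 nearest to miR-16-5p were let-7i-5p (0.18), miR-20a-5p (0.24) and let-7c-5p (0.24) among the 474 compared. In colon they were miR-98-5p (0.062), miR-92a-3p (0.077) and miR-28a-5p (0.080) among 532. The nearest to miR-15b-5p were miR-128-1-5p (0.14) in blood and miR-1306-5p (0.057) in colon. These distances are descriptions, and for guides of few counts they may favour other miRNAs of few counts, which was not tested. For miR-195a-5p in blood, miR-7670-3p was nearest (0.052).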

How the data were processed

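Small RNA of 12 libraries was analysed, the colon and blood of the same 6 mice (3 DSS, 3 control). The authors trimmed and collapsed the reads, used the quantifier of miRDeep2 (2.0.1.0, default options) with the mature mouse sequences of miRBase 22, and deposited the counts. They also deposited a normalized signal per tissue, the count divided by a DESeq2 (1.22.2) size factor, used here only for mature sequences and as an alternative. Counts were fitted in R (4.3.3) with edgeR (4.0.16; filterByExpr, TMM, glmQLFit, glmQLFTest), in each tissue alone for DSS and over 12 libraries between tissues. A call needs a fold change over 1.5 and an adjusted p (Benjamini-Hochberg, over all miRNAs tested) of at most 0.05 (interaction: the adjusted p alone). The standard error is the log2 fold change divided by the root of F. Arm ratios were compared with exact two-sided permutation tests (scipy 1.17.1). The edgeR fits were tested on simulated data. DESeq2 (1.42.0) and limma (3.58.1) were alternatives. Replicates are separate mice. Libraries were paired by the mouse number in the sample titles, which were taken to name the animal, and deviations of a mouse's libraries from their group means correlated at -0.267 to 0.0719 over 680 miRNAs.

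Named miRNAs are the 10 members, miRNAs with the seed of miR-16-5p, miR-497a-3p and miR-503-5p as relatives, and the 3 nearest patterns of each guide, of which a part is printed. Members and lists were chosen with earlier results of these data known. Marker lists came from general knowledge. Total counts bear on counting error only. No molecular identifiers are named in the sources used here.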

Additional observations from a re-analysis of the deposited data

How the results depend on the processing

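All 10 members were called between the tissues under each of the 15 alternatives, in 1 direction each. In colon 0 were called under each of 16, but 6 of these (4 without single mice, the labels' grouping and all libraries in 1 fit) called 0 of all miRNAs and say nothing about the members. In blood, 1 member (miR-16-5p) was called with no filter on low counts, among 25 of 1121 miRNAs, and 1 in DESeq2, among 9 of 469. For a DSS effect that differs between tissues, 2 members were called in DESeq2, among 37 of 611. The cause was not tested. Without single mice, the members called with DSS stayed at 0 in colon, in blood and for that difference, where 0 to 44, 0 to 1 and 0 to 2 of all miRNAs were called, and 10 were called between tissues.

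Members without a call changed sign under some settings, given here as log2 fold changes. In colon with total counts alone, where the median of all miRNAs was 0.26, they were 0.18 for miR-15a-5p, 0.20 for miR-15b-5p, 0.16 for miR-15b-3p, 0.079 for miR-16-5p and 0.042 for miR-16-2-3p. With the labels' grouping in colon they were -0.44 for miR-15a-3p, -0.34 for miR-16-1-3p, -0.15 for miR-195a-5p, -0.047 for miR-195a-3p and -0.29 for miR-497a-5p. With that grouping in blood they were 0.0079 for miR-15b-5p, 0.94 for miR-16-5p, 0.36 for miR-195a-5p, -0.068 for miR-195a-3p and 0.22 for miR-497a-5p, and for the difference between tissues 0.70 for miR-16-5p and 0.29 for miR-195a-5p. In blood, miR-15b-5p was 0.039 with upper-quartile factors, 0.16 with total counts, 0.22 with all libraries in 1 fit and 0.018 in limma.

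Without single mice, colon fold changes ran from -0.43 to 0.15 for miR-15a-5p, -0.073 to 0.44 for miR-15a-3p, -0.20 to 0.090 for miR-15b-5p, -0.35 to 0.080 for miR-15b-3p and -0.053 to 0.40 for miR-16-1-3p. In blood they ran from -0.092 to 0.41 for miR-15a-5p and -0.26 to 0.20 for miR-15b-5p. The passengers in blood ran from 0.40 to 1.03 for miR-15a-3p, 0.15 to 0.65 for miR-15b-3p, 0.15 to 1.30 for miR-16-1-3p, 0.62 to 1.55 for miR-16-2-3p and 0.21 to 0.61 for miR-195a-3p, and miR-16-2-3p in colon from -0.35 to -0.085 (without control mice 4 and 8). miR-16-5p in blood ran from -1.35 to -0.83, the latter without control mouse 2. The arm ratio differences of miR-15b with DSS ran from -0.011 to 0.29 (colon) and -0.75 to 0.0021 (blood), and that of miR-15a-3p to miR-16-1-3p between tissues from -0.58 to -0.37.

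The labels' grouping turned arm ratio differences to 0.12 and 0.061 for miR-15a in colon and blood, -0.039 for miR-15b in colon, 0.30 and 0.82 for miR-16 in colon and blood and 0.48 for miR-195a in blood. It put the mean miR-16-5p share at 61.7% in the colitis group and 58.6% in the controls of the colon, and at 69.7% and 57.2% in blood. Adding 1 in place of 0.5 to the counts changed no direction or call.

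Pairing the libraries of a mouse (replicate block) in edgeR left all 10 members called between tissues and 0 for the difference in DSS effect. The paired sign-flip test gave an adjusted p of 0.0833 for the tissue differences in the log2 ratio of miR-15a (1.29), miR-15b (2.43) and miR-15a-3p to miR-16-1-3p (-0.49). Their unadjusted p of 0.0312 is the smallest that 6 mice allow.

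The depth limits what miR-16-2-3p, miR-15a-3p and miR-497a-5p can show, and 3 mice a group limit every comparison with DSS. The alternatives on shares by mouse and by the labels' grouping, and the arm ratios over all hairpins, were chosen after seeing the data.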
